A study of Homo sapiens with 6 samples.

Results

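Dimethylation of histone H3 at lysine 9 (H3K9me2) was analysed in the colorectal cancer cell line HCT116, an established human line, at the sites where it was called in coding exons only after depletion of KDM3A and KDM3B. The H3K9me2 regions of HCT116/ABsh-1 cells that were narrower than 1000 bp, overlapped no H3K9me2 region of HCT116/Scrsh cells and had their centre in a coding exon of a canonical protein-coding transcript, more than 3 kb from its transcription start site (TSS), were selected on the called regions of both lists, their position and their width. They numbered 6929 of the 88855 regions listed for HCT116/ABsh-1 and are called new exonic regions here. HCT116/ABsh-1 cells express 1 shRNA that targets KDM3A as well as KDM3B, and HCT116/Scrsh cells, the control, express a scramble shRNA. The labels of the samples call the treatment siRNA and the study's methods call it shRNA. The series held 6 ChIP-seq libraries, which were H3K9me2 ChIP, KDM3B ChIP and input DNA from either cell population, with 1 library each. No replicates existed, so the values of single libraries are compared without a test. The region lists give no read numbers, and sequencing depth is therefore unknown. The list of HCT116/Scrsh held 11645 H3K9me2 regions, and a region can be absent from it because of the mark or because of depth, which cannot be told apart here. Measured values thus chose these regions, and their absence from the control list is not a finding. Knockdown of KDM3A and KDM3B was not measured in these data.

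H3K9me2 is a mark of silent chromatin that is laid down by methyltransferases such as EHMT1 and EHMT2 and recognised by proteins that help to compact DNA. KDM3A, KDM3B and JMJD1C form the KDM3 family of demethylases, which remove methyl groups from this residue with a preference for the dimethylated form. Coding exons are generally richer in G and C than the introns around them.

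Sequences of 3 new exonic regions are shown, because exons with and without new H3K9me2 differed strongly in GC content. The first is AXIN2, a scaffold of the complex that degrades β-catenin and a well-known Wnt target. The others are the highest-scoring remaining regions of at most 300 bp, in PDZD7, which encodes a PDZ-domain scaffold of sensory hair cells, and ALOXE3, which encodes a lipoxygenase of the epidermis. The 3 sequences were read from hg19 and are printed 5′ to 3′ on the minus strand, which is the transcribed direction of all 3 genes, with CpG dinucleotides in capitals. Each region is divided at the exon boundary, and the untranslated bases of the AXIN2 region are not printed.
AXIN2 coding part, exon 2 of 11, chr17:63554501-63554738, 238 bases: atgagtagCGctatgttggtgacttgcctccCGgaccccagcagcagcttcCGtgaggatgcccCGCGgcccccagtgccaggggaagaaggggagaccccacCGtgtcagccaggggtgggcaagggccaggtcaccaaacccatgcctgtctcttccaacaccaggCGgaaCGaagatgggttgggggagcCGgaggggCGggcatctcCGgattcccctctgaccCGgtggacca
PDZD7 coding part, exon 8 of 17, chr10:102778579-102778800, 222 bases: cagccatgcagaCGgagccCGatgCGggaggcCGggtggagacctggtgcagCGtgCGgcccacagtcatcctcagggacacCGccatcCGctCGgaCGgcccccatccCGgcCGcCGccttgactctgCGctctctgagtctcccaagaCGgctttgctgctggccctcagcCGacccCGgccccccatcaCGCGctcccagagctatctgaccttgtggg
PDZD7 intron part, chr10:102778501-102778578, 78 bases: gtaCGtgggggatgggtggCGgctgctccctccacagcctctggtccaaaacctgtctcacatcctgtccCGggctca
ALOXE3 intron part, chr17:8012662-8012800, 139 bases: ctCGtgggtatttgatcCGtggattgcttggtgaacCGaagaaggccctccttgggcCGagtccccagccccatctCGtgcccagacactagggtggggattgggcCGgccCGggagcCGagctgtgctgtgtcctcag
ALOXE3 coding part, exon 12 of 16, chr17:8012501-8012661, 161 bases: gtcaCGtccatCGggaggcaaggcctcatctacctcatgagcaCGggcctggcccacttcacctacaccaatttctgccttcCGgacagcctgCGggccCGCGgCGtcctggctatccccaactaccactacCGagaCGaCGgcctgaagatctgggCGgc

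The AXIN2 stretch begins with the start codon of the protein, had a GC content of 66.0% and held 12 CpG. In PDZD7 the coding part held 19 CpG at 69.8% GC, whereas the intron part held 3 at 64.1% GC. In ALOXE3 the coding and the intron part had nearly the same GC content, 64.0% each, and held 12 and 8 CpG. The whole regions carried scores of 132 for AXIN2, 143 for PDZD7 and 116 for ALOXE3. The score is a whole number that the authors gave each region without stating its meaning, and it serves here only to order regions within a list.

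The new exonic regions were short. Of the 6929 regions, 2507 (36.2%) were 100 bp wide, the smallest width in the list, 1600 were 200 bp and 1060 were 300 bp, and the median was 200 bp. The score rose with the width, from a median of 15 at 100 bp to 162 at 900 bp, but per 100 bp its median stayed between 15 and 18.8 at all widths. Mean GC content was near 64% at every width, with a spread between regions that narrowed from an SD of 5.06 percentage points at 100 bp to 2.62 at 900 bp. The median GC content over all of them was 64.3%, with 59.0% and 69.0% as the 10th and 90th percentile. The median ratio of observed to expected CpG was 0.476, and 1933 regions (27.9%) had both a GC content above 50% and a CpG ratio above 0.6, the usual description of a CpG-rich stretch. Most regions were not confined to the exon. Only 2108 (30.4%) lay wholly in coding sequence, and coding bases made up 65.8% of all bases covered.

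At the limits of the rule, values on either side were close. The 100 new exonic regions of 900 bp had a median score of 162 and a mean GC content of 63.9%, and the 61 regions of 1000 bp that met the rule otherwise had a median score of 180 and 64.1% GC. Within 3000 to 3500 bp of the TSS lay 168 new exonic regions with a median score of 37, and 187 regions at 2500 to 3000 bp, just outside, had a median score of 33. One of the excluded regions lay in exon 2 of MYC, a Wnt target, 2673 bp from the canonical TSS, with a width of 100 bp and a score of 18. The distance was measured from the canonical TSS alone, and 3778 new exonic regions (54.5%) lay within 3 kb of some other annotated TSS. The AXIN2 region is one of them, at 3116 bp from the canonical and 197 bp from the nearest annotated TSS.

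To see how much coding sequence new H3K9me2 regions covered, the coding exons more than 3 kb from the TSS were divided into 277836 windows of 100 bp in 16787 genes. Cover was counted over all 81144 regions of HCT116/ABsh-1 narrower than 1000 bp that overlapped no control region. These new narrow regions include those centred outside coding exons, so cover is not that of the new exonic regions alone. Windows in wider regions, or in regions that overlap a control region, count as uncovered. The new narrow regions covered 17366 of the windows, which is 6.25% (Wilson 95% confidence interval 6.16 to 6.34%). All Wilson intervals given cover counting error only, since neighbouring windows and regions are not independent. Intron windows of the same genes at the same distance from the TSS were covered in 0.797% of cases (81970 of 10285267), a ratio of 7.84. Introns had a mean GC content of 41.1% against 50.1% for coding windows. When introns were weighted to the GC content of the coding windows in bins of 5 percentage points, their cover was 3.44% and the ratio was 1.82. Weighting by GC content and the number of CpG together, an alternative chosen after the data were seen, gave a ratio of 1.76. In the same way, the ratio of coding windows to 3′ UTR windows was 1.44, and to 5′ UTR windows 1.28.

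More cover of coding than of intron windows was also found in the control list. Although the list of HCT116/Scrsh covered only 0.413% of the coding windows, its ratio of coding to intron cover was 8.70, and 3.42 at equal GC content. H3K9me2 regions of 1000 bp or more in HCT116/ABsh-1 gave 1.62 at equal GC content. The KDM3B lists shared this pattern before weighting but not at equal GC content. KDM3B regions of HCT116/Scrsh covered 0.123% of the coding windows, with a ratio to introns of 1.60, and 0.743 at equal GC content. Those of HCT116/ABsh-1 covered 0.0702% (195 windows), with a ratio of 2.37, and 0.954 at equal GC content. Among whole regions narrower than 1000 bp, 8.54% (8.35 to 8.73%) of the new H3K9me2 regions had their centre in such a coding exon, against 11.8% (10.8 to 12.97%) of the H3K9me2 regions of HCT116/ABsh-1 that overlapped the control list, 5.79% (5.38 to 6.23%) of the control list itself, and 1.07% and 1.38% of the KDM3B regions of HCT116/Scrsh and HCT116/ABsh-1.

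Covered and uncovered coding windows differed strongly in GC content. Below 35% GC, none of the windows in the bins at 25 to 30% (4301 windows) and 30 to 35% (16970 windows) was covered, which allows shares of up to 0.0892% and 0.0226% by the Wilson interval. Cover was 0.338% at 45 to 50% GC, 5.99% at 55 to 60%, 16.5% at 60 to 65% and 29.5% at 65 to 70%. It was highest at 70 to 75%, with 2399 of 7801 windows (30.8%, 29.7 to 31.8%), and then fell to 12.9% at 75 to 80% and to 3 of 596 windows (0.503%) at 80 to 85%. Introns followed the same course at a lower level, with 1.96% at 55 to 60%, 7.20% at 60 to 65% and 23.1% at 70 to 75%. Coding windows thus had 3.06 times the cover of introns at 55 to 60% GC but only 1.33 times at 70 to 75%. Below 45% few coding windows were covered, and in each bin the coding interval held the intron share. At 40 to 45% GC the shares were 0.0708% (0.0496 to 0.101%) in coding windows and 0.0939% in introns. Cover by the control list also rose with GC content, from 0.918% of coding windows at 60 to 65% to 2.05% at 70 to 75%.

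**Figure D1:**
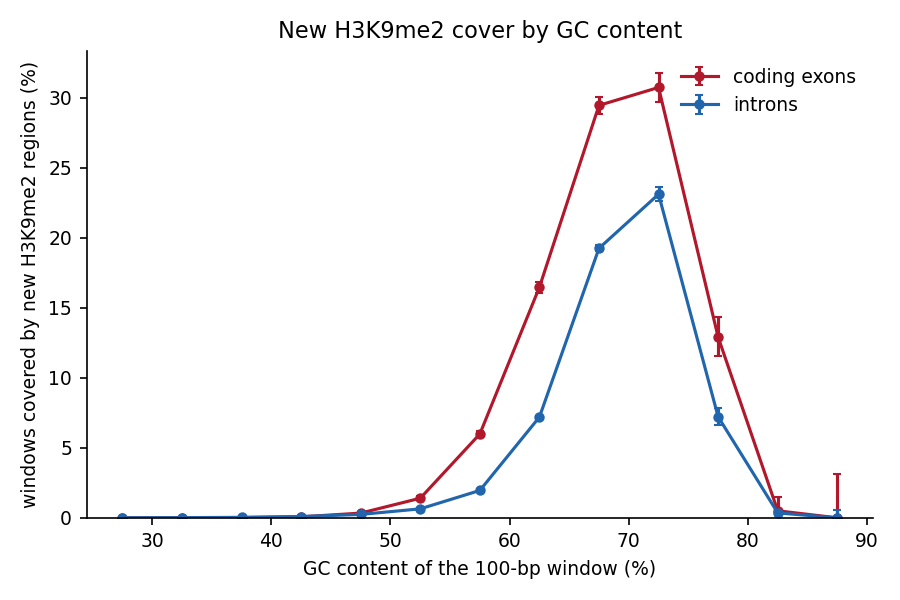
Share of 100-bp windows covered by new narrow H3K9me2 regions of HCT116/ABsh-1 (y axis, %) against the GC content of the window (x axis, %, bins of 5 points), for coding exons in red and introns in blue, with Wilson 95% intervals as bars. Both curves peak at 70 to 75% GC, at 30.8% in coding exons and 23.1% in introns, and drop steeply above it.

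The number of CpG moved with cover as well. Coding windows without CpG were covered in 0.378% of cases and those with 8 or more in 25.3%. Part of this follows GC content, yet within the bin of 60 to 65% GC the cover was 7.88% (7.03 to 8.82%) with 0 to 1 CpG, 13.2% (12.7 to 13.7%) with 2 to 4 and 22.5% (21.8 to 23.2%) with 5 or more. At 70 to 75% GC the 3 classes lay closer, at 26.1% (18.1 to 36.2%), 30.7% and 30.8%. New narrow regions centred in introns were narrower than the exonic ones, with 46.5% at 100 bp against 36.2% and a mean width of 242 bp against 266 bp. Their median score was lower, 26 against 36, but at a fixed width of 100 bp it was 15 in both. The intronic regions also had a lower mean GC content of 60.9%, against 64.1%, and a lower median CpG ratio of 0.331, against 0.476.

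Cover varied less with position in the gene. First coding exons were covered in 8.38% of their windows (7.87 to 8.92%), internal exons in 5.97% (5.87 to 6.08%) and last exons in 7.34% (7.10 to 7.58%). The cover that the GC content of these windows alone would give, from the rate of all coding windows in each GC bin, was 7.46%, 5.95% and 7.33%. Genes with a single coding exon had 4.78% against 6.55% from GC content. The control list covered 1.09% of their windows, against 0.413% of all coding windows. Cover declined from 9.43% at 3 to 5 kb from the TSS to 3.96% beyond 100 kb, but it was 0.952 to 1.07 times the GC-based value at all distances. Exon length showed a maximum at 300 to under 500 bp, with 10.9% covered (1.16 times the GC-based value), whereas exons of 2000 bp or more had 3.96% (0.701 times). Sequence in regions of 1000 bp or more, or in regions that overlap the control list, counts as uncovered in all these values. A low value is thus not a lack of H3K9me2 regions of every kind.

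To see whether the mark was centred on the exon, cover was followed across 36024 internal coding exons of 100 to 200 bp that lay more than 5 kb from the TSS and more than 1000 bp from the next coding exon. At the exon centre, 3.38% (3.19 to 3.57%) were covered by new narrow regions, compared with 0.697% (0.616 to 0.788%) at 500 bp upstream and 0.691% (0.611 to 0.782%) at 500 bp downstream, a ratio of 4.86. The control list of HCT116/Scrsh, at a much lower level, peaked at the exon centre as well, with 0.178% covered there against 0.025% and 0.050% at the upstream and downstream flank. For the new regions, the peak followed the contrast in GC content between exon and flank. Exons with less GC than their flanks had a ratio of 1.43, exons with up to 5 points more had 2.86, those with 5 to 10 points more had 6, and those with at least 10 points more had 12.98. In the last group 588 exons were covered at the centre but at neither flank, and 58 at a flank but not the centre. Among exons poorer in GC than their flanks the numbers were 92 and 132. The flank number takes in both flank positions, against a single centre. By position, 132 of these exons were covered at the centre, 89 upstream and 96 downstream.

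**Figure D2:**
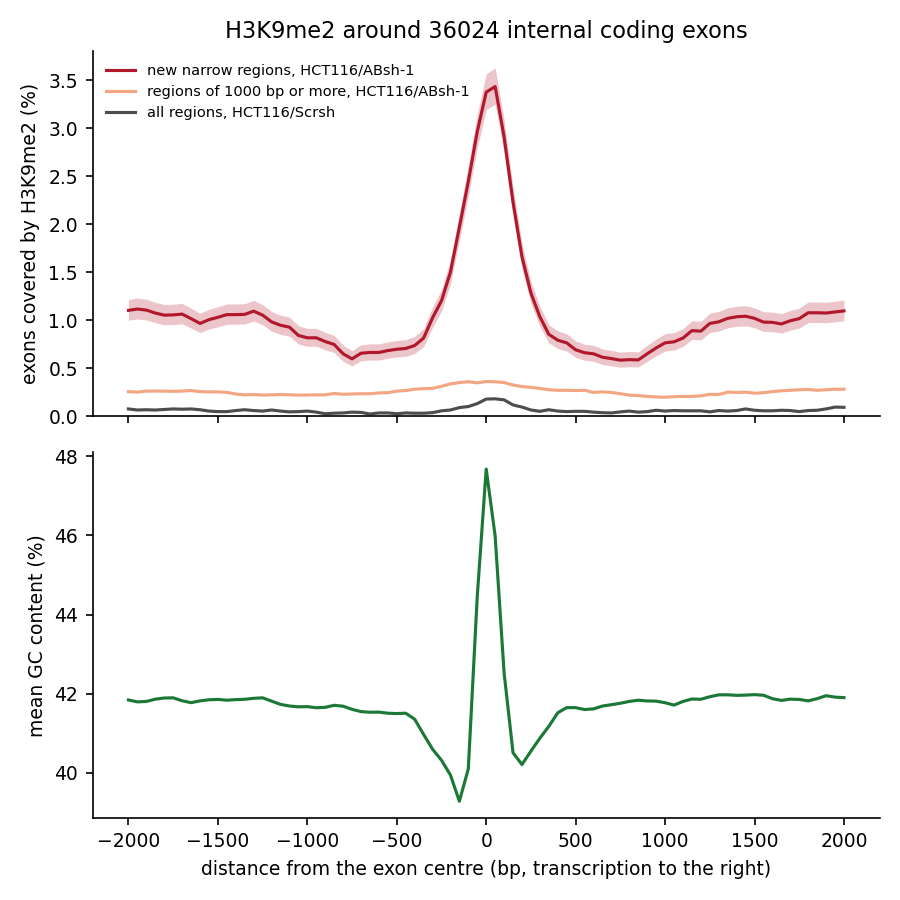
Share of 36024 isolated internal coding exons covered by H3K9me2 regions (upper panel, y axis, %) and mean GC content in 100-bp windows (lower panel, %) by distance from the exon centre (x axis, bp), with the Wilson 95% interval of the new regions shaded. New narrow regions of HCT116/ABsh-1 peak at the exon centre, where GC content is also highest, and the regions of HCT116/Scrsh have a peak at the same place, from 0.025% and 0.050% at 500 bp to 0.178%, that is small on this axis.

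New exonic regions were found in 3705 genes, which is 22.1% of the 16787 genes with at least 1 eligible coding window. Of these genes, 2128 held 1 region, 856 held 2, 498 held 3 to 4, 210 held 5 to 9 and 13 held 10 or more. The share of genes with a region grew with their coding length, from 8.28% (7.41 to 9.24%) of the genes with 1 to 5 windows to 39.6% (36.7 to 42.5%) of those with over 40. Regions per 100 windows did not grow, with 2.79 in the former and 2.08 in the latter.

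Among the genes with the most regions were long genes of many exons, several of which encode giant muscle or matrix proteins. RYR1, the calcium release channel of skeletal muscle, held 16 regions in 16 of its 106 coding exons on chromosome 19, with scores of up to 173. New narrow regions covered 49 of its 153 coding windows (32.03%), against 7.45% of its intron windows. The same number of regions was found in HSPG2, the basement membrane proteoglycan perlecan, and TNXB, the matrix protein tenascin-X. TNXB has a near-identical partial copy in the genome, so its unique reads come from part of the gene only and its values are uncertain. CDH23, a cadherin of the sensory hair cell, held 14 regions, and so did the gene listed as ENSG00000188897 on chromosome 16. LRP1, an endocytic receptor, and SPEG, a kinase of striated muscle, held 13 each, and FBN3, a fibrillin, 12. These 8 genes had mean coding GC contents of 59.8% (CDH23) or more, and their cover was 1.24 (SPEG) to 2.16 (FBN3) times the value from GC content. These ratios describe genes picked for their number of regions.

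Among genes with at least 20 windows, the share covered by new narrow regions was highest in WHRN, a scaffold protein of hair cells. It had 16 of 23 windows covered (69.6%) and held 6 new exonic regions. The next were SLC45A4, a membrane transporter gene, with 66.7%, LZTS3 with 65%, ZAP70, a tyrosine kinase of T cells, with 65%, and BAHD1, a protein of silent chromatin, with 63.6%. WHRN carried scores of 14 to 61, below the scores of up to 173 in RYR1.

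The 5 highest-scoring regions lay in 3 genes of chromosome 17. TSPOAP1, which encodes a protein of the presynaptic terminal, held the first, with a score of 298 over 800 bp at exon 17 of 32 (chr17:56389301-56390100, 783 coding bases), and the third, with 264 at exon 19. CACNA1G, a T-type calcium channel, held the second in its last exon (chr17:48703301-48704200, score 270) and the fifth at exon 15 (score 258). EPN3, an endocytic adaptor, held the fourth at exon 2 of 10 (score 259). Of the 10 highest scores 9 lay on the long arm of chromosome 17, and of the 100 highest 22, although this arm held 422 of all 6929 regions. The median score on this arm was 48 against 36 over all regions. A higher median was found on 4q, 53.5 over 22 regions. At a fixed width of 100 bp the median on 17q was 18, against 15 over all, and 4p, 4q, 5q, 7p, 8p and 8q had the same value. On 18p it was higher, 18.5 over 6 regions.

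CACNA1G shows how such regions can lie among others along a gene. Its 5 regions, of 500 to 900 bp, lay at exons 15, 21, 25, 33 and 38 of 38, with scores of 258, 150, 111, 250 and 270. New narrow regions covered 24 of its 71 coding windows (33.8%), against 18.1% of its intron windows. A further 31 coding windows lay in H3K9me2 regions of 1000 bp or more. Within the gene and 5 kb around it, 40 other H3K9me2 regions were listed in HCT116/ABsh-1 and 5 in HCT116/Scrsh. No KDM3B region of HCT116/Scrsh was listed there, and 1 of HCT116/ABsh-1 lay downstream of the gene.

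**Figure D3:**
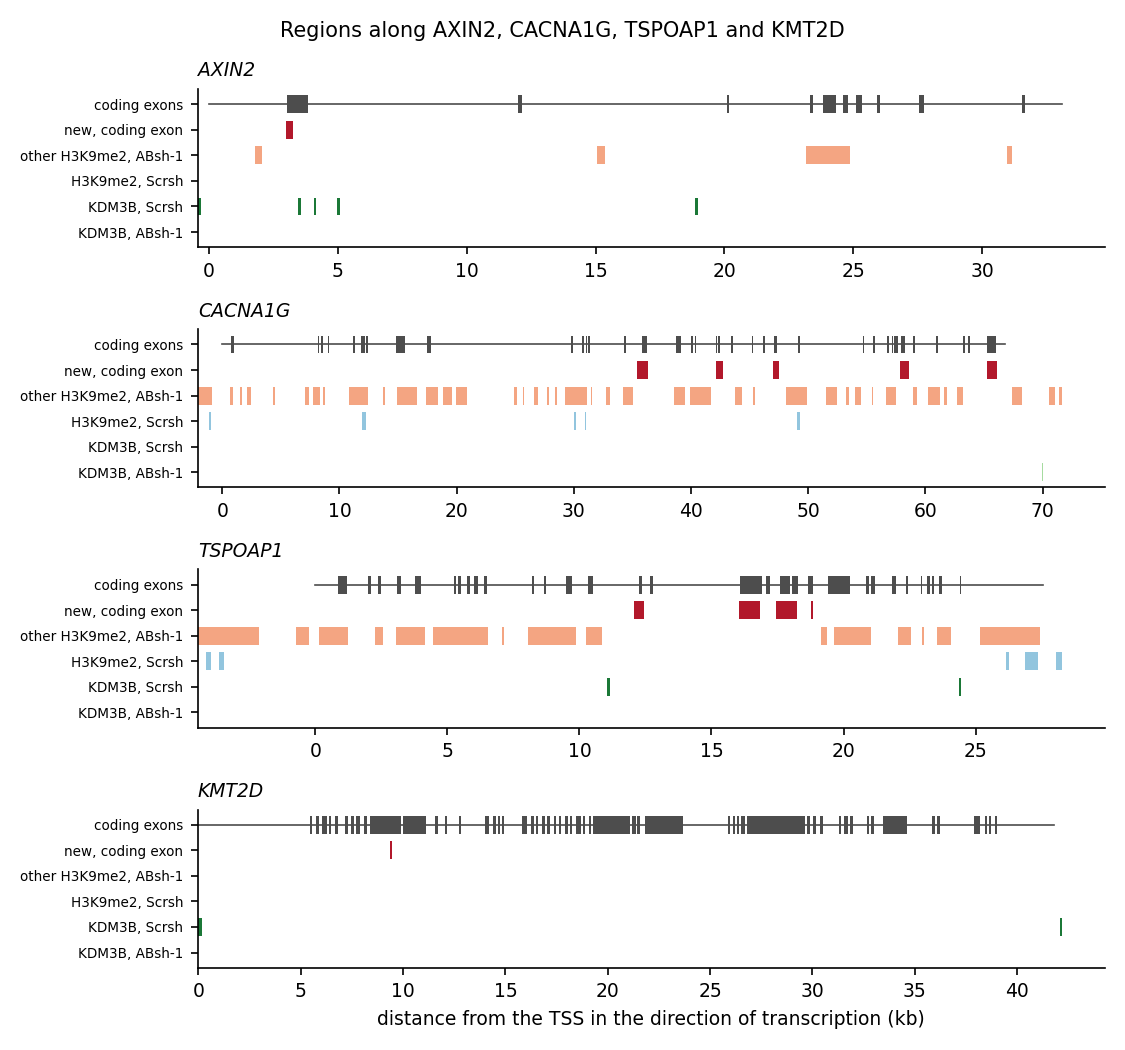
Coding exons and called regions along AXIN2, CACNA1G, TSPOAP1 and KMT2D, by distance from the canonical TSS in the direction of transcription (x axis, kb), with 1 row per kind of region and no scale on the y axis. CACNA1G carries 5 new exonic regions and TSPOAP1 carries 4, among many other H3K9me2 regions of HCT116/ABsh-1, and AXIN2 and KMT2D carry 1 each.

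The 31 Wnt target genes that the study compiled, of which 26 had eligible windows, were looked at next, since the study asks whether KDM3A/B control H3K9me2 at Wnt targets. New exonic regions lay in 6 of the 26 (23.1%, against 22.1% of all genes), 12 in all. New narrow regions covered 20 of 381 coding windows (5.25%, 3.42 to 7.97%, against 6.25% over all genes and 6.41% from GC content). These shares are near the background. The study used other measures. It averaged the H3K9me2 profile within 5 kb of the TSS of these genes, and measured sites of AXIN2, DKK1, CCND1 and MYC by ChIP-qPCR. The AXIN2 sites included introns and coding exons, where it reported more H3K9me2 after depletion. Genome-wide, it reported H3K9me2 enrichment over gene bodies, coding regions among them, after depletion. It also linked many genes with enhanced H3K9me2 to the Wnt/β-catenin pathway by gene ontology. The shares given here count called regions in coding exons over 3 kb from the TSS and do not check those results. TIAM1, a guanine nucleotide exchange factor for Rac, held 4 regions with scores of 77, 51, 23 and 18, of which the strongest covered 400 coding bases of exon 5 (chr21:32624101-32624500). FGF18, a growth factor, held 3, with scores of 18 in exon 3, 38 at exon 4 and 62 at exon 5. L1CAM, a cell adhesion molecule encoded on the X chromosome, held 2, with scores of 42 and 8. PPARD, a nuclear receptor, held 1 with a score of 39, and GAST, the gene of gastrin, 1 with a score of 15. AXIN2 had the highest score of the 12, at 132. Within AXIN2 and 5 kb around it, 4 other H3K9me2 regions of HCT116/ABsh-1 were listed and none of HCT116/Scrsh, and KDM3B regions numbered 5 in HCT116/Scrsh, whereas the list of HCT116/ABsh-1 held none.

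Among 41 other genes of the Wnt pathway, 13 held new exonic regions (31.7%, against 22.1% of all genes). Genes of this group had a median of 21 windows, against 12 over all genes. Of all genes with 21 to 40 windows, 33.0% held a region. CELSR1, a cadherin of planar cell polarity, held 8 regions and had 40.9% of its windows covered by new narrow regions. LRP5, a Wnt co-receptor, held 7 and had 26.0% covered. APC2, a relative of the APC tumour suppressor, also held 7 and had 20.6% covered. The group as a whole had 11.4% of 1053 windows covered (9.62 to 13.5%) against 10.0% from GC content. Of the 18 H3K9 methyltransferases and demethylases, which had a median of 29 windows, 3 held regions. This is 16.7%, against 22.1% of all genes and 33.0% of those with 21 to 40 windows. Of their 578 windows 24 were covered (4.15%, 2.81 to 6.10%), an interval that holds the 5.001% from GC content. KDM4B, an H3K9 demethylase, held 4, at exons 3, 10, 21 and 23 with scores of 41, 121, 40 and 81, and 17 of its 34 windows (50%) were covered. PHF2 and EHMT1 held 1 each. KDM3A, KDM3B and JMJD1C held none. None of their 38, 51 and 71 windows was covered, at mean GC contents of 43.2%, 50.5% and 38.8%.

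Apart from olfactory receptors, the H3K4 methyltransferases had the lowest cover relative to GC content of the 22 groups, 0.178 times the GC-based value. Regions were found in 4 of these 6 genes (66.7%, against 22.1% of all genes), which are long, with a median of 75 windows against 12 over all genes. Of their 561 windows, 10 were covered (1.78%, 0.971 to 3.25%), where GC content would give 9.99%. KMT2D had a single 100-bp region with a score of 16 in exon 11 of 55 and 1 of 165 windows covered, at a mean GC content of 59.9%. KMT2B had 1 of 65 and SETD1A 5 of 48. Colorectal cancer driver genes were also low, with 5 of 28 genes and 1.86% of 806 windows covered (1.13 to 3.05%) against 4.22% from GC content. Of these, POLD1, a DNA polymerase subunit, held 3 regions, ARID1A, a chromatin remodeller, held 2, and SMAD3, ERBB2 and TCF7L2 held 1.

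In several gene groups the interval of cover lay above the value from GC content. The intervals leave out that windows of 1 gene are not independent, so they sort the groups without testing them. Of all eligible genes 22.1% held a region, and of those with over 40 windows 39.6% did. Genes of the groups below had medians of 24 to 131 windows, except 12 for potassium channels and 4 for HOX genes, against 12 over all genes. Voltage-gated calcium channel genes held regions in 9 of 10 members, with 16.8% of 641 windows covered (14.2 to 19.9%) against 11.2% from GC content, led by CACNA1C with 7 regions and by CACNA1H and CACNA1S with 6. Semaphorins, which guide axons, had 12 of 20 genes and 15.03% (12.2 to 18.4%) against 10.2%. ADAMTS proteases had 10 of 19 and 12.99% (10.6 to 15.9%) against 9.33%, with 9 regions in ADAMTS13, the enzyme that cleaves von Willebrand factor. Potassium channels had 27 of 81 and 12.05% (10.3 to 14.1%) against 9.21%, and collagens 30 of 44 and 11.6% (10.3 to 13.1%) against 9.49%, with 10 regions in COL5A1. In 3 further groups the margin was too small to place them. The FAT, DCHS and CELSR cadherins had 7 of 9 and 9.16% (7.47 to 11.2%) against 6.95%, and kinesins 12 of 40 and 9.23% (7.77 to 10.9%) against 7.32%. Dynein heavy chains had 5 of 15 and 3.62% (2.87 to 4.56%) against 2.80%, and DNAH17 alone held 32 of their 69 covered windows. In the next 3 groups the interval held that value. Notch receptors and ligands had 8 of 9 genes and 19.9% (16.2 to 24.3%) against 16.8%, with 8 regions in NOTCH3 and 7 in NOTCH1. The HOX genes had 5 of 8 and 22.2% of 54 windows (13.2 to 34.9%) against 14.9%, and sodium channels 2 of 9 and 3.30% (2.07 to 5.22%) against 2.88%.

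In other groups the interval lay below the value from GC content, with the same limit of the intervals. The share of genes with a region was 22.1% over all eligible genes. Laminins had 5 of 12 genes and 5.88% (4.40 to 7.83%) against 8.55%, and within them LAMC3 had 24 of 42 windows covered while LAMA5 had 11 of 110 at a higher GC content of 66.9%. Plexins had 6 of 9 and 12.3% (9.69 to 15.6%) against 16.3%. Mucins had 5 of 15 and 3.53% (2.71 to 4.58%) against 6.69%. Zinc finger genes named ZNF had 63 of 485 and 3.31% (2.95 to 3.70%) against 4.002%. None of 163 olfactory receptor genes held a region, and 0 of 1419 of their windows were covered, which allows a share of up to 0.270% where GC content would give 2.20%. Ribosomal protein genes, with a median of 2 windows each, held a region in 1 of 53, RPL3L, a form of striated muscle, and had 2.05% of 146 windows covered (0.701 to 5.87%), an interval that holds the 4.51% from GC content. Only uniquely mapped reads entered the lists, so the values of mucin repeats and of similar copies among zinc finger and olfactory receptor genes are uncertain.

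**Figure D4:**
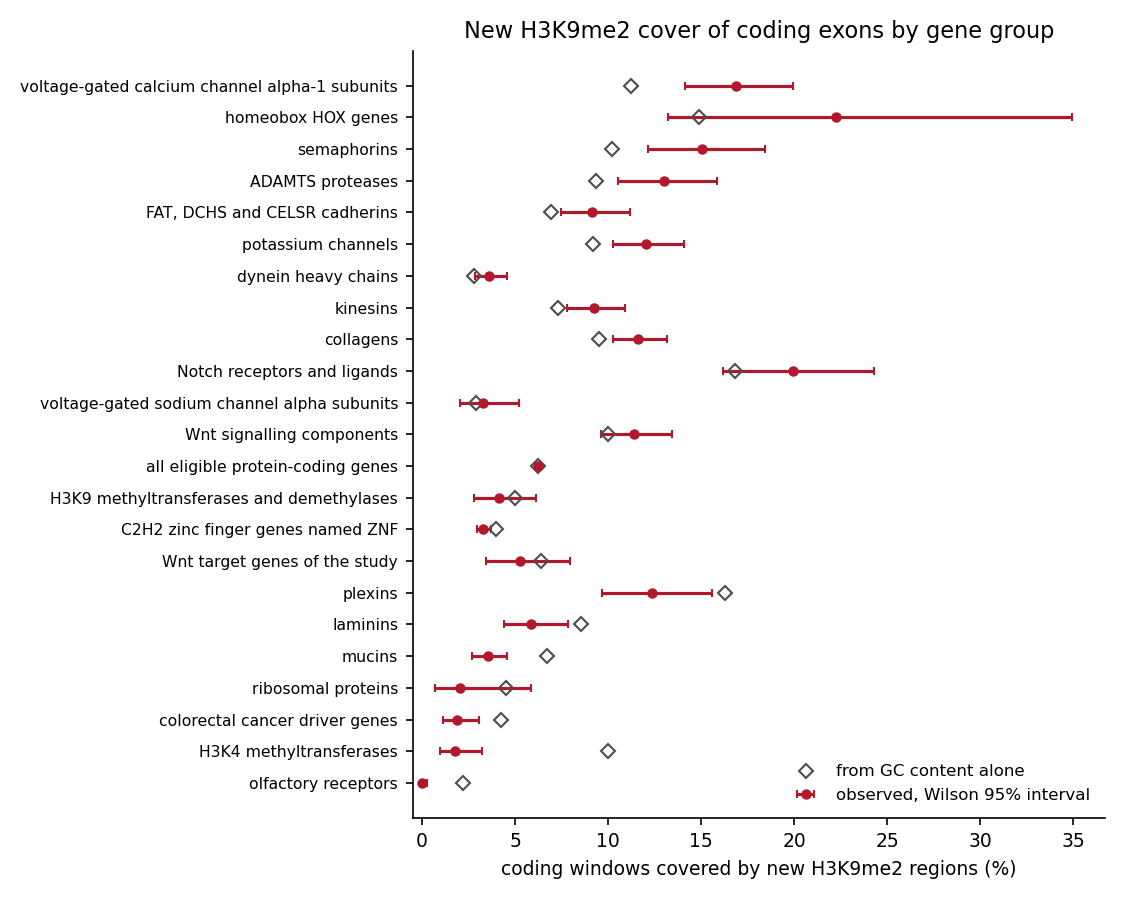
Share of coding windows covered by new H3K9me2 regions (x axis, %) in 22 gene groups and in all eligible genes, as red points with Wilson 95% intervals, and the share that GC content alone would give as open diamonds. Groups are ordered by the ratio of both values, from the olfactory receptors (0 of 1419 windows) to the calcium channels (16.8% against 11.2%).

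Across chromosomes, cover ranged from 14.9% of the coding windows on chromosomes 19 and 22 to 1.37% on chromosome X and 0 of 473 windows on Y. Chromosome 19 held 1028 of the new exonic regions (14.8%) and 6.57% of the coding windows. Its GC content would give 12.1% cover. Chromosome X stood apart from its GC content, which would give 4.37%, and had a ratio of 0.312. Its median score was 16, against 36 over all regions. The control list was low there as well, with 0.0809% of the coding windows covered, against 0.413% on all chromosomes together. The ratio of coding to intron cover at equal GC content was above 1 on all 23 chromosomes with new exonic regions, from 1.40 on chromosome 18 to 2.68 on chromosome 6.

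**Figure D5:**
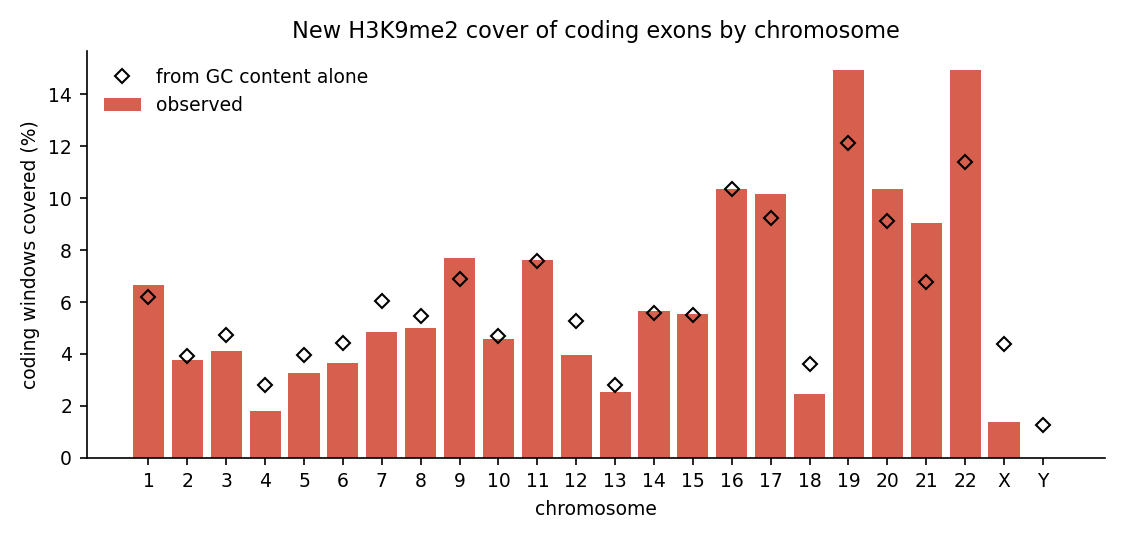
Share of coding windows covered by new H3K9me2 regions (bars, y axis, %) on each chromosome (x axis), with the share that GC content alone would give as open diamonds. Chromosomes 19 and 22 both reach 14.9% and chromosome X has 1.37%, below its GC-based 4.37%.

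Finally, the new exonic regions were set against KDM3B, which the rule did not use. Of the 3705 genes with a region, 27.4% (26.0 to 28.9%) had a KDM3B region of HCT116/Scrsh within 5 kb of the TSS, compared with 28.7% (28.0 to 29.5%) of the 13082 genes without. The genes differed in mean coding GC content, 59.998% against 47.9%. In the third of genes with middle GC content the shares were 19.7% (16.9 to 22.8%) and 26.3% (25.05 to 27.5%), and in the third with high GC content 29.1% (27.5 to 30.8%) and 29.9% (28.2 to 31.7%). With low GC content, where 39 genes held a region, they were 35.9% (22.7 to 51.6%) and 30.4% (29.2 to 31.6%). KDM3B listed at the TSS in HCT116/Scrsh and not in HCT116/ABsh-1 was found in 16.5% (15.3 to 17.7%) and 18.2% (17.5 to 18.9%). Seen from the other side, new exonic regions lay in 20.4% (18.995 to 21.9%) of the 2990 genes that lost KDM3B from the list at the TSS, in 22.7% (20.8 to 24.7%) of those with KDM3B in both populations and in 22.3% (21.5 to 23.1%) of those with KDM3B in neither. Of all eligible genes, 22.1% held a new exonic region. Within the gene body, KDM3B regions of HCT116/Scrsh were more frequent in genes with a new exonic region, 38.5% (36.9 to 40.04%) against 29.4% (28.7 to 30.2%), and these genes had a median of 16 coding windows against 11.

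At the regions themselves, KDM3B was rarely listed. Only 2 of the 6929 regions overlapped a KDM3B region of HCT116/Scrsh. Of the covered coding windows 0.0173% (0.00588 to 0.0508%) overlapped one, against 0.131% (0.117 to 0.145%) of the uncovered windows and 0.305% of the uncovered windows weighted to the same GC content. Of the new exonic regions 155 (2.24%) had one within 1 kb and 1029 (14.9%) within 5 kb. Among the covered coding windows 2.07% (1.87 to 2.30%) lay within 1 kb of a KDM3B region of HCT116/Scrsh, against 1.53% of the uncovered ones and 3.20% of the uncovered ones weighted to the same GC content. Within 5 kb the shares were 15.4% (14.9 to 16.0%), 8.60% and 15.6%. Other H3K9me2 regions of HCT116/ABsh-1 were nearer, with 3062 of the new exonic regions (44.2%, 43.0 to 45.4%) within 1 kb of another. For all H3K9me2 regions of that list the share was 47.2% (46.8 to 47.5%). That list holds 88855 regions and the KDM3B list of HCT116/Scrsh 17638, so their shares are not like for like. An H3K9me2 region of the control list, which holds 11645, was found within 1 kb of 174 new exonic regions (2.51%).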

How the data were processed

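H3K9me2 and KDM3B ChIP-seq of HCT116/Scrsh and HCT116/ABsh-1 cells was analysed, with 1 library each and 1 region list per library. The authors mapped reads to hg19 with Bowtie, kept uniquely mapped reads, of which duplicates at a position were counted as 1, and called windows of 100 bp in which ChIP exceeded input by a Poisson test. The deposited score of each region, a whole number of 2 or more, has no stated meaning and served only to order the regions of a list. Depth is not given in the sources used here. The 2 inputs were not analysed here.

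Genes were the canonical protein-coding transcripts of GENCODE release 44 lifted to hg19, with 601 named by identifier only. Coding windows were the 100-bp windows whose middle base lay in a coding exon over 3 kb from the TSS. Cover counted all new narrow regions, wherever their centre lay. Cover was standardised to GC content in bins of 5 percentage points. Intervals are Wilson 95% intervals, which cover counting error only, and no test was made. The measures were tested on simulated lists. New regions and gene lists were chosen with earlier results of these data known. Genes named are the 10 with the most regions, those of the 5 highest scores, the 5 with the highest share of covered windows (20 windows or more), the Wnt targets with a region, up to 3 genes per list of 22, and KDM3A, KDM3B and JMJD1C. Genes tied for a place in a list could all be named. MYC was named, and the 4 genes of the map were picked, after their values were seen. Results for 2 genes that this rule picks are not reported here. Alternatives were the 50% highest-scoring regions of each list, equal list lengths, merging within 1 kb, no control region within 1 kb, coding sequence over at least 50% of the region, and distance from every annotated TSS. Python 3.11.15, numpy 2.4.6, pandas 2.3.3, scipy 1.17.1, pysam 0.24.0 and matplotlib 3.10.9 were used.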

Additional observations from a re-analysis of the deposited data

How the results depend on the processing

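The ratio of coding to intron cover at equal GC content, 1.82, stayed above 1 under each alternative. It was 1.92 with the 50% of regions of highest score, 1.78 with the H3K9me2 list of HCT116/ABsh-1 shortened to the length of the control list, 2.13 after merging regions less than 1 kb apart, 2.01 more than 3 kb from every annotated TSS, and 1.76 with GC content and CpG number standardised together, which was chosen after the data were seen. Numbers of regions depended on the list. The 6929 new exonic regions became 3916 at the 50% of highest score, 612 with lists of equal length, 4026 after merging and 3151 beyond 3 kb of every annotated TSS. The 3705 genes became 530 with lists of equal length and 1987 beyond 3 kb of every annotated TSS. Cover of coding windows, 6.25%, became 5.06%, 1.34%, 3.75% and 5.21% in the same 4 settings, and 6.10% without new regions within 1 kb of a control region. The share of genes with KDM3B at the TSS, 27.4%, became 15.01% at the 50% of highest score, where the KDM3B list was halved as well, 23.4% with equal lengths and 24.5% beyond 3 kb of every annotated TSS. Requiring coding sequence over at least 50% of a region left 6052 regions in 3435 genes and does not bear on windows. No paired analysis was possible because each antibody had 1 library per condition and no test was made, and leaving out a replicate was not possible for the same reason. Depth is unknown, so the length of a list cannot be told apart from sequencing depth.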

Other observations

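The heptamer CTTTGAT, a core sequence bound by TCF factors, was searched on both strands in the coding windows. It was present in 100 of 17366 windows covered by new H3K9me2 regions (0.576%, 0.474 to 0.700%) and in 2.00% of those not covered, with 1.91% of all coding windows. At equal GC content the shares were nearly the same. They were 0.468% (0.360 to 0.609%) and 0.477% (0.416 to 0.547%) at 60 to 70% GC, and 1.45% (1.06 to 1.96%) and 1.51% at 50 to 60% GC. None of the 3 printed regions held it. A match describes letters and is not evidence of binding.

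Zinc finger genes differed among themselves. ZNF469, with a single long coding exon at 67.4% GC, held 4 regions over 118 windows, with 0.532 times the cover that its GC content would give, and ZNF750, a regulator of epidermal differentiation, held 3 regions over 22 windows, with 12 of them covered (54.5%) and 4.10 times that value.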
